A study of Arabidopsis thaliana with 6 samples.

Results

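The genes described here are 9 C2H2 zinc finger stress factors of Arabidopsis thaliana, ZAT5, ZAT6, ZAT7, ZAT10, ZAT11, ZAT12, AZF1, AZF2 and AZF3, of 32947 genes measured in leaf mRNA. They were taken by locus identifier, and they were chosen on results from these libraries (members of the family were already known to differ in some mutants), so their own values are a description and carry no p-value. All plants were of ecotype Columbia-0, and leaves were collected at 3 weeks from plants under constant light. The 6 libraries were 2 of wild type (WT) and 1 each of the nrpe1-11 mutant, the idn2-1 mutant, a double mutant with idnl1-1 and idnl2-1, and a triple mutant with idn2-1 and both of these idnl alleles. Each mutant was thus represented by 1 library of 1 allele or allele combination. The labels do not state whether the WT pair comes from different plants, so its spread may be technical.

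Proteins of this family bind DNA through paired zinc fingers and mostly repress their target genes. Their mRNAs are known to appear within minutes to hours of cold, salt, drought, wounding, high light or reactive oxygen species, downstream of calcium signals and MAP kinase cascades. ZAT10 and ZAT12 are standard markers of such responses in leaves. The mutated genes belong to RNA-directed DNA methylation, in which small RNAs and scaffold transcripts of RNA polymerase V guide a DNA methyltransferase to transposons and some genes. NRPE1 is the largest subunit of polymerase V, and IDN2 binds RNA in a complex with its relatives IDNL1 and IDNL2. The comparisons ask how leaf mRNA levels differ when each of these components is mutated.

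Each of the 9 proteins, translated from the RefSeq coding annotation on TAIR10.1, carries 2 zinc fingers of the C2H2 type and 2 copies of the peptide QALGGH, the finger helix that is typical of plant proteins of this kind. The coding stretch of the first finger is shown for every gene because it is the feature that unites them. Each stretch runs 5′ to 3′ on the coding strand from the first cysteine to the last histidine codon, over 63 bases, with the QALGGH codons in capitals.
ZAT5: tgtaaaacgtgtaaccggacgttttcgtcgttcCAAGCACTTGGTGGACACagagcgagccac
ZAT6: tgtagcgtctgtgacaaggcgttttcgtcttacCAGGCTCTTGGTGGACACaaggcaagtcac
ZAT7: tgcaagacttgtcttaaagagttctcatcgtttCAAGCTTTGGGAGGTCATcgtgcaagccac
ZAT10: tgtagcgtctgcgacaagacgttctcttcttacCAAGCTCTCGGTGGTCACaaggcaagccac
ZAT11: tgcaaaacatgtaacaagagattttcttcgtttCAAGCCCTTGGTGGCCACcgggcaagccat
ZAT12: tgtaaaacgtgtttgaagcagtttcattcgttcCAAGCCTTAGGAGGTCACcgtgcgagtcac
AZF1: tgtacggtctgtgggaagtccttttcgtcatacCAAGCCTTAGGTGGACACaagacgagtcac
AZF2: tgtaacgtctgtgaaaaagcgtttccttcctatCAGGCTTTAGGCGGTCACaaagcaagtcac
AZF3: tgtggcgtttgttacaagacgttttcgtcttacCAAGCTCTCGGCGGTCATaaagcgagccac
The codons for QALGGH differed between the genes while the peptide they encode was the same in all 9. The proteins were 162 residues long in ZAT12 and up to 286 in ZAT5. ZAT6 and ZAT10 shared 73.6% of the residues of the shorter protein, ZAT10 and AZF3 71.0%, and ZAT7 and ZAT12 66.0%. The peptide DLNL, the core of a repression motif of the EAR type, was found in ZAT5, ZAT11, AZF1 and AZF2, 4 of the 9 proteins. Another EAR pattern, LxLxL, in which x is any residue, was found in these and in ZAT6, ZAT7 and ZAT12. ZAT10 and AZF3 held neither pattern, but other forms of the EAR motif were not searched, so these proteins are not shown to lack one. All 9 genes had their coding sequence in a single segment, and none overlapped another gene in the deposited coordinates. ZAT7 has a near copy, AT3G46080, with 90.2% of the residues of the shorter protein identical, so ZAT7 reads could have been divided between the 2 genes and its level is uncertain.

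Levels are the deposited RPKM, in which reads are divided by gene length and library size. Depth was 2737943 reads in WT replicate 1, 5975802 in WT replicate 2, with 5819494 for the double mutant, and it lay between 2793873 and 3078153 in the nrpe1, idn2 and triple mutants. The targeted genes gave an incomplete check of the labels: IDNL1 had 1 read in the triple mutant and 6 in the double against 50 to 144 elsewhere, and IDNL2 stood at 0.704 and 0.680 RPKM in these libraries against 1.80 to 2.59. IDN2 mRNA was still at 12.4 RPKM in idn2 and 14.8 in the triple, with 18.0 and 17.1 in WT. NRPE1 mRNA was highest in the nrpe1 library, at 4.92 RPKM, against 2.14 and 3.72 in WT. Transcript levels therefore do not check the idn2-1 and nrpe1-11 labels. The summed level of 5 leaf mesophyll markers was 1175 RPKM in WT replicate 1 and 1098 to 1159 in the nrpe1, idn2 and triple mutants, but 630 and 651 in WT replicate 2 and the double mutant, the pair sequenced most deeply. None of the 5 passed the limma test described below in any mutant. RBCS1A had 999 and 1125 reads in WT replicates 1 and 2, and RCA 2157 and 2352, far closer than the depths of these libraries. The most reads per base of any gene lay between 1.37 and 1.56 in all 6 libraries. The part of depth in these marker levels was not tested. Fewer cells of a type and less RNA per cell cannot be told apart in such bulk samples.

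In WT leaves ZAT10 was the most abundant of the 9 mRNAs, at 54.3 ± 6.09 RPKM (SD, n = 2, as for each level in this paragraph), and ZAT5 followed at 25.5 ± 2.14. A middle group held AZF2 at 17.7 ± 3.46, ZAT12 at 17.5 ± 4.71, ZAT6 at 14.1 ± 6.35 and AZF3 at 12.1 ± 3.32. Neighbours in this order had overlapping WT values, while AZF2, at 15.2 and 20.1, lay above AZF3, at 9.78 and 14.5, in both libraries. ZAT7 stood at 9.50 ± 2.16, with values that overlapped those of AZF3. AZF1, at 4.27 ± 0.138, and ZAT11, at 1.41 ± 0.363, lay below all others and apart from each other. None of the 9 differed 2-fold between the WT libraries, where 1.06% of the 22362 genes tested did (those reaching 1 RPKM in any library, compared as log2(RPKM + 1)). Their median difference, WT replicate 2 minus replicate 1, was 0.38 on the log2 scale, and the median over all genes tested was 0.15.

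**Figure D1:**
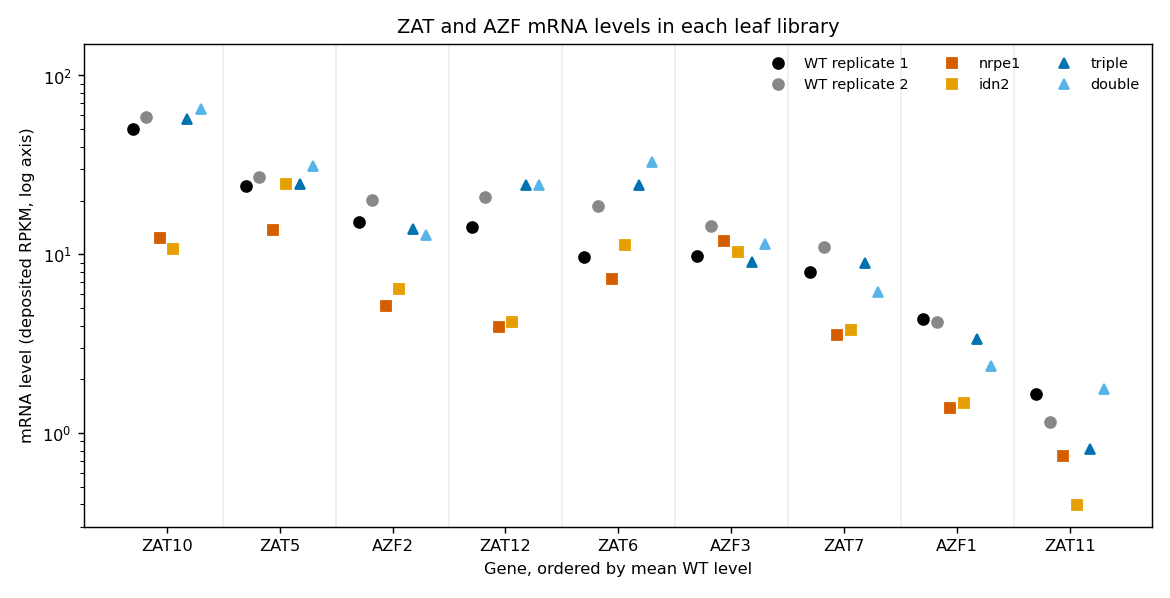
RPKM of each of the 9 genes in the 6 libraries, 1 point per library, on a log axis. ZAT10 and ZAT12 stand lowest in the nrpe1 and idn2 libraries, while for both genes the triple and double mutants lie close to or above WT; AZF3 shows no such order.

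ZAT10, ZAT12, AZF1 and AZF2 were at least 2-fold lower than each WT library in nrpe1 and in idn2, by differences of 1.09 to 2.24 on the log2 scale from the WT mean. In the triple and double mutants none of the 9 lay 2-fold below or above both WT libraries. The triple mutant carries the idn2-1 allele too, but none of these 4 mRNAs passed the rule in it. There ZAT10 lay between the WT levels, ZAT12 above both, and AZF1 and AZF2 below both. In nrpe1, 2.13% of the genes tested passed the rule in the lower direction and 0.599% in the higher, and 4 and 0 of the 9 did. In idn2, 1.49% passed lower and 0.219% higher, against 4 and 0 of the 9. In the triple mutant 0.595% passed lower and 0.116% higher, and in the double mutant 0.335% and 0.201%, against 0 of the 9 throughout. Since the 9 genes were chosen with these contrasts known, nothing is read from their share. The mutants were compared with the same WT libraries, so their values are given side by side.

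ZAT10 (AT1G27730), on chromosome 1 at 9648128 to 9649060 (TAIR8, as are all gene positions here), is a repressor also known as salt tolerance zinc finger, induced by cold, salt, drought and high light. It stood at 49.95 and 58.6 RPKM in WT, 12.4 in nrpe1, 10.7 in idn2, 57.3 in the triple mutant and 65.1 in the double. The nrpe1 and idn2 values lay far below both WT values, the triple mutant lay between them, and the double mutant lay above. The reads behind these levels were 128 and 327 in WT, 35 in nrpe1 and 28 in idn2. Scaled to library totals, ZAT10 reads were 4.59-fold lower in nrpe1 than in the pooled WT libraries (exact 95% binomial interval 3.25 to 6.68) and 5.38-fold lower in idn2 (3.67 to 8.19). Against WT replicate 1 alone, which has a similar depth, they were 4.11-fold lower in nrpe1 (2.81 to 6.16) and 4.82-fold lower in idn2 (3.18 to 7.53). These intervals, like all others given here, cover counting error only and not variation between plants. In the triple mutant the read ratio to WT was 1.03 (0.849 to 1.24).

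ZAT12 (AT5G59820), on chromosome 5 at 24120198 to 24121013, acts in the response to reactive oxygen species and high light. Its level was 14.2 and 20.8 RPKM in WT, 3.94 in nrpe1, 4.21 in idn2, 24.3 in the triple mutant and 24.5 in the double. The nrpe1 and idn2 levels were again below both WT levels, and the triple and double mutants were above both. Each of the nrpe1 and idn2 libraries held 9 reads of ZAT12, against 31 in WT replicate 1, which has a similar depth. The reads were 5.18-fold lower than pooled WT in nrpe1 (2.65 to 11.6) and 4.86-fold lower in idn2 (2.48 to 10.9). Against WT replicate 1 alone they were 3.87-fold lower in nrpe1 (1.80 to 9.25) and 3.63-fold lower in idn2 (1.69 to 8.67). In the triple mutant the ratio was 1.30 (0.931 to 1.79) against pooled WT and 1.74 (1.10 to 2.79) against WT replicate 1 alone, so only the second interval leaves out 1.

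AZF2 (AT3G19580), on chromosome 3 at 6803172 to 6804239, is a repressor induced by abscisic acid and osmotic stress. It stood at 15.2 and 20.1 RPKM in WT, 5.12 in nrpe1, 6.42 in idn2, 13.9 in the triple mutant and 12.8 in the double. All 4 mutants lay below both WT libraries, nrpe1 and idn2 by more than 2-fold. Its reads were 3.80-fold lower than pooled WT in nrpe1 (2.27 to 6.79) and 3.00-fold lower in idn2 (1.86 to 5.10). Against WT replicate 1 alone they were 3.09-fold lower in nrpe1 (1.71 to 5.87) and 2.44-fold lower in idn2 (1.40 to 4.43). In the double mutant the ratio to WT was 0.688 (0.520 to 0.903), and in the triple mutant 0.743 (0.515 to 1.05).

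AZF1 (AT5G67450), on chromosome 5 at 26936019 to 26937175, is a relative of AZF2 with a role in the same responses. Its level was 4.37 and 4.17 RPKM in WT, 1.39 in nrpe1, 1.48 in idn2, 3.37 in the triple mutant and 2.36 in the double. WT values were close together and every mutant value was lower. Only 4 reads were counted in each of nrpe1 and idn2, so the ratios to WT, 0.276 (0.0719 to 0.763) and 0.295 (0.0767 to 0.814), are imprecise. AZF1 lay just inside the 2-fold rule, with log2 differences of -1.17 and -1.11 between nrpe1 and the WT libraries and of -1.11 and -1.06 for idn2. In idn2 it no longer passed with median-of-ratios scaling or quantile normalization.

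ZAT7 (AT3G46090), on chromosome 3 at 16937201 to 16937835, has been linked to salt tolerance and lay just outside the rule. It stood at 7.97 and 11.0 RPKM in WT, 3.55 in nrpe1, 3.78 in idn2, 8.93 in the triple mutant and 6.20 in the double. The nrpe1, idn2 and double mutant values lay below both WT values and the triple mutant value lay between them. Against WT replicate 1 the log2 difference was -0.98 in nrpe1 and -0.91 in idn2, and against WT replicate 2 it was -1.40 and -1.33. The 6 reads in each of these mutants gave a ratio to pooled WT of 0.315 (0.111 to 0.730) in nrpe1 and 0.336 (0.118 to 0.779) in idn2. Against WT replicate 1 alone, with 13 reads, the nrpe1 ratio of 0.411 has an interval that includes 1 (0.128 to 1.16). The near copy AT3G46080 had at most 5 reads in any library, and stood at 3.65 and 1.01 RPKM in WT, from 4 and 2 reads. It had 0 reads in nrpe1 and in idn2. Its deposited 0.651 RPKM in nrpe1 is that of the single read carried by each gene.

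**Figure D2:**
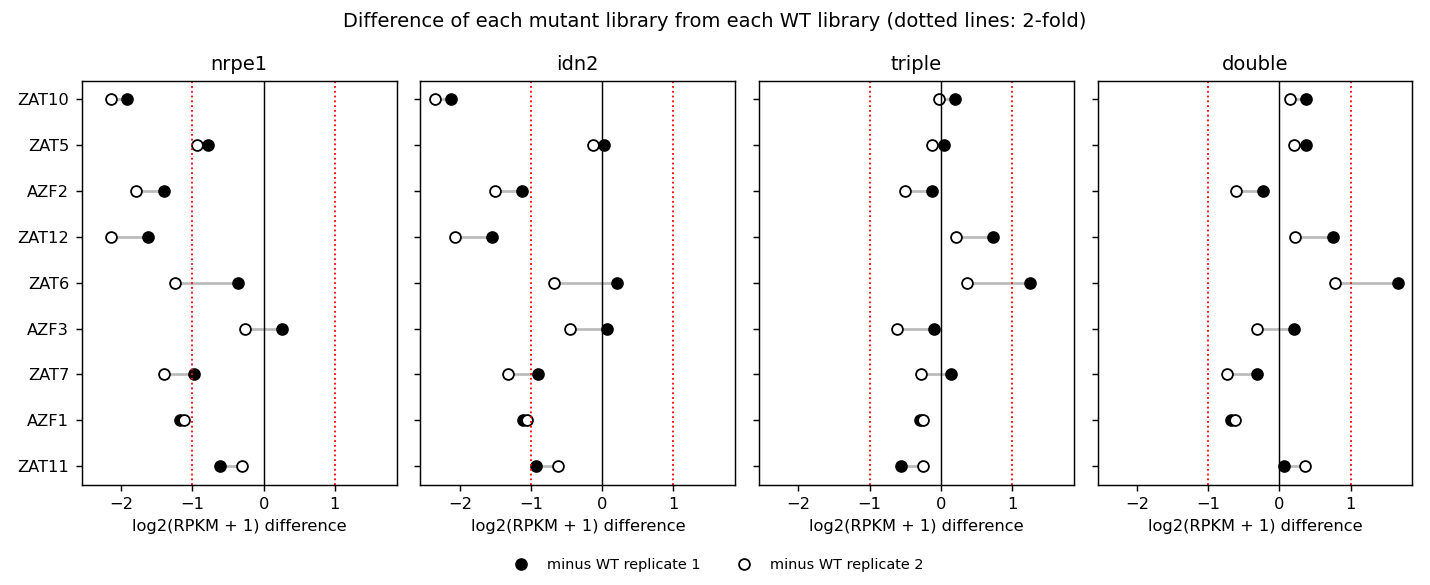
Difference in log2(RPKM + 1) of each gene between a mutant and each WT library, 1 panel per mutant and 1 point per WT library, with dotted lines at a 2-fold difference. In nrpe1 and idn2 both points of ZAT10, ZAT12, AZF1 and AZF2 lie beyond the lower line, and in the triple and double mutants no gene has both points beyond either line.

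ZAT6 (AT5G04340), on chromosome 5 at 1216132 to 1217107, is a regulator of root growth and phosphate balance that is also induced by cold and cadmium, and it varied most within WT. It stood at 9.62 and 18.6 RPKM in WT, 7.25 in nrpe1, 11.2 in idn2, 24.3 in the triple mutant and 32.8 in the double. Only nrpe1 lay below both WT libraries, idn2 lay between them, and the triple and double mutants lay above both. Its reads in the double mutant were 1.77 times those of WT replicate 2, the library of similar depth (1.39 to 2.26), but WT replicate 2 itself stood at 1.98 times WT replicate 1 (1.27 to 3.19). In nrpe1 the ratio was 0.447 (0.268 to 0.712) against pooled WT and 0.747 (0.398 to 1.39) against WT replicate 1. On the log2 scale the double mutant lay 1.23 and the triple 0.81 above the WT mean, and the WT libraries were 0.88 apart.

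ZAT5 (AT2G28200), on chromosome 2 at 12031226 to 12032383, is among the less studied genes of the family. Its level was 24.0 and 27.0 RPKM in WT, 13.6 in nrpe1, 24.6 in idn2, 24.8 in the triple mutant and 31.3 in the double. Only the nrpe1 library stood apart, below all 5 others. The ratio of its reads to pooled WT was 0.517 (0.372 to 0.705) in nrpe1 and 0.942 (0.726 to 1.21) in idn2. Set directly against idn2, the nrpe1 level of ZAT5 was 0.549 times as high (0.376 to 0.793).

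AZF3 (AT5G43170), on chromosome 5 at 17348173 to 17348874, is close in sequence to ZAT10. It stood at 9.78 and 14.5 RPKM in WT, 11.9 in nrpe1, 10.3 in idn2, 9.08 in the triple mutant and 11.5 in the double. Every mutant except the triple lay within the WT range. The ratio to pooled WT was 0.907 (0.554 to 1.44) in nrpe1 and 0.775 (0.449 to 1.28) in idn2, intervals that exclude the ratio seen for ZAT10.

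ZAT11 (AT2G37430), on chromosome 2 at 15713436 to 15714303, is induced by hydrogen peroxide in other settings and was near the limit of detection in these leaves. It had 3 and 5 reads in WT, 1 in nrpe1, 0 in idn2, 1 in the triple mutant and 8 in the double. At this depth no difference between libraries was detectable, and a count of 0 allows up to 3 reads. The deposited level for idn2, 0.395 RPKM, is that of the single read that each gene carries in the tables.

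The nrpe1, idn2 and triple mutant libraries had similar depths and can be compared without WT. ZAT6, ZAT7, ZAT10, ZAT12 and AZF2 were at least 2-fold lower in nrpe1 than in the triple mutant, where 2.21% of all genes tested were. Set against the same triple library, in idn2 ZAT6, ZAT7, ZAT10, ZAT12 and AZF2 passed as well, where 1.4% of all genes did. ZAT10 in idn2 was 0.181 times the triple mutant level (0.116 to 0.272), and ZAT12 was 0.158 times (0.0689 to 0.323). In nrpe1 the ratios to the triple mutant were 0.212 (0.142 to 0.308) for ZAT10 and 0.149 (0.0645 to 0.303) for ZAT12. ZAT6 was at 0.289 (0.168 to 0.478) in nrpe1 and 0.455 (0.287 to 0.707) in idn2, and after quantile normalization it no longer passed in idn2. AZF2 was at 0.354 (0.186 to 0.645) and 0.449 (0.246 to 0.791). For ZAT7 the ratios of 0.363 (0.115 to 0.990) and 0.387 (0.123 to 1.06) rest on 6 reads in each mutant against 15 in the triple. AZF3, in contrast, stood at 1.14 times the triple mutant level in idn2 (0.567 to 2.32). The idn2 and triple mutant libraries carry the same idn2-1 allele, so this pair differs by the idnl1-1 and idnl2-1 alleles and by whatever else sets 1 library apart from another. Between nrpe1 and idn2 none of the 9 differed 2-fold, where 2.03% of all genes did, and ZAT5 had the only read ratio whose interval left out 1.

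**Figure D3:**
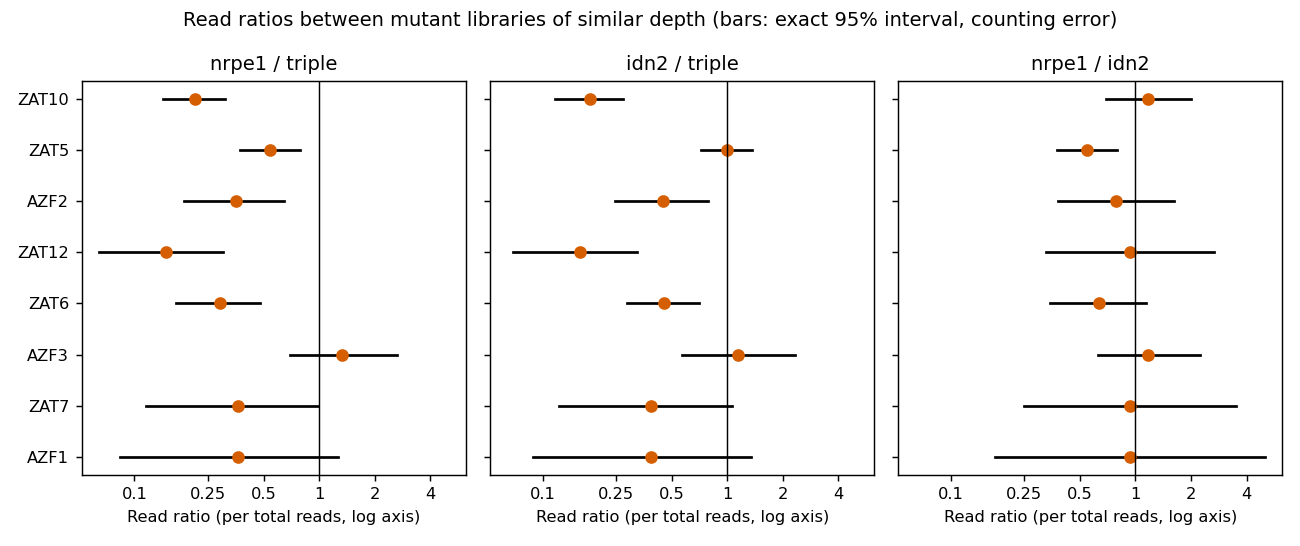
Read ratio of each gene except ZAT11 (at most 1 read in these libraries) between mutant libraries of similar depth, scaled to library totals, on a log axis with exact 95% binomial intervals. Against the triple mutant, ZAT10 and ZAT12 lie between 0.149 and 0.212 in nrpe1 and idn2, and in nrpe1 against idn2 the ZAT5 interval alone leaves out 1.

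Over the 9 genes the median log2 difference from the WT mean was -1.14 in nrpe1 and -1.09 in idn2, where the median over all genes tested was 0.02 and -0.02. It was -0.07 in the triple mutant (all genes -0.05) and 0.21 in the double mutant (all genes 0.04). In nrpe1 8 of the 9 stood below both WT libraries and 0 above both, where 34.2% and 28.8% of all genes tested did. In idn2 6 stood below and 0 above (all genes 35.7% and 21.6%). In the triple mutant 4 stood below and 2 above (all genes 39.2% and 19%), and in the double mutant 3 below and 5 above (all genes 20% and 36.7%). As the members were chosen on these contrasts, nothing is read from these counts.

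Levels of the 9 genes varied together to different degrees over the 6 libraries. The correlation of each with the mean of their standardised profiles, in which each gene is itself included, was 0.97 for ZAT10, 0.97 for AZF2, 0.96 for ZAT12 and 0.91 for ZAT7. It was 0.84 for AZF1, 0.76 for ZAT5, 0.74 for ZAT11, 0.73 for ZAT6 and 0.21 for AZF3. Among 16695 other genes that reached 5 RPKM in any library, the 8 whose profiles were most like the mean had correlations of 0.995 to 0.999, and 808 genes reached 0.9. The closest was WRKY6, a WRKY transcription factor of senescence and nutrient responses, at 12.5 and 16.9 RPKM in WT, 6.19 in nrpe1, 6.60 in idn2, 12.7 in the triple mutant and 14.2 in the double. DEAR2, a DREB-type factor with an EAR motif, stood at 34.5 and 48.7 RPKM in WT, 11.6 in nrpe1 and 14.2 in idn2. The others were CNGC1, a cyclic nucleotide gated channel, and AT1G62422, AT3G57880, AT3G60200, AT1G06050 and AT1G68580. These correlations are a description over 6 libraries of 5 genotypes, which differ in depth as well.

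Of 50 genes listed around the family, 45 were tested with limma, 6 passed in nrpe1 and 5 in idn2, all lower (Benjamini-Hochberg adjusted p under 0.05 over all 22362 genes). No listed gene passed in the triple or the double mutant, where 2 and 5 had an unadjusted p under 0.05 and limma-voom on the reads called 0 in each. Over all genes, 3.26% passed in nrpe1, 1.66% in idn2, 0.3% in the triple mutant and 0.344% in the double. This fit has 1 residual degree of freedom, from the WT pair, and assumes that each mutant library varies as WT does. It also takes the variance expected at each expression level as known (infinite prior degrees of freedom). The adjusted p-values below changed by orders of magnitude with the processing, and those of SZF1 and ERF6 were far larger with quantile normalization. Their exact sizes should not be relied on. The lists were drawn up with earlier results of these data known.

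Among 7 other genes of the rapid stress response 5 fell in nrpe1 and 5 in idn2, with medians of -2.01 and -1.49 on the log2 scale. ERF6, an ethylene response factor phosphorylated by MAP kinases, was at 22.5 and 25.7 RPKM in WT, 2.47 in nrpe1, 1.31 in idn2, 14.6 in the triple mutant and 19.0 in the double. It fell by 2.85 on the log2 scale in nrpe1 (SE 0.39, limma adjusted p = 1.04e-10) and fell by 3.44 in idn2 (SE 0.39, adjusted p = 1.92e-15). SZF1, a CCCH zinc finger protein of the salt response, was at 88.1 and 87.6 RPKM in WT, 13.1 in nrpe1 and 18.6 in idn2. It fell by 2.65 in nrpe1 (SE 0.23, limma adjusted p = 3.63e-28) and fell by 2.18 in idn2 (adjusted p = 1.03e-18). ERF5, a close relative of ERF6, fell by 2.46 (limma adjusted p = 1.35e-09) in nrpe1 and fell by 1.49 in idn2 (0.00324). WRKY40, a repressor in immune and abscisic acid responses, fell by 2.01 (SE 0.52, limma adjusted p = 0.00576) in nrpe1 and fell by 1.78 in idn2 (0.0406). CZF1, the relative of SZF1 also called SZF2, fell by 0.91 (SE 0.22, limma adjusted p = 0.00171) in nrpe1 and fell by 0.75 in idn2 (0.0403). The CZF1 call in idn2 was lost with a pseudocount of 0.1 (adjusted p = 0.0581), with no filter on low values (0.125) and with limma-voom (0.211). The 2 genes of this list that did not pass were DREB2A, a factor of the drought response, and BAP1, an inhibitor of cell death. Their log2 differences were 0.39 and -1.37 in nrpe1 and -0.43 and -0.41 in idn2.

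Of 16 genes that signal upstream of the family, such as MAP kinases, heat shock factors and CAMTA factors, RBOHD alone passed in any mutant. RBOHD, the NADPH oxidase that makes superoxide at the plasma membrane, was at 34.2 and 36.8 RPKM in WT and 21.6 in nrpe1, and fell by 0.69 (SE 0.22, limma adjusted p = 0.0444). That call was lost with a pseudocount of 0.1 (adjusted p = 0.0661), with no filter (0.135) and with limma-voom (0.0658). In idn2 RBOHD stood at 22.4 RPKM, a log2 difference of -0.64 (adjusted p = 0.15). The median of the 16 was -0.24 in nrpe1, -0.25 in idn2, -0.08 in the triple mutant and 0.10 in the double.

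None of 7 corepressor genes (TOPLESS, its relatives and partners, which EAR motifs recruit) passed in any mutant, with medians of -0.16 in nrpe1 and -0.09 in idn2. None of the 9 tested genes of reactive oxygen scavenging, such as ascorbate peroxidase and catalase, passed either, with medians of 0.26 and 0.16. The summed level of this list was 719 RPKM in WT replicate 1 and 484 in WT replicate 2. It was 686 in nrpe1, 681 in idn2, 704 in the triple mutant and 488 in the double. These sums split as library depth does, and the part of depth in the medians was not tested. Of 10 further C2H2 genes related to the 9, 6 were tested and none passed, with medians of -0.07 and -0.20. For these 3 lists the medians in the triple mutant were -0.28, 0.28 and 0.06, and in the double mutant 0.06, -0.37 and 0.02. A gene that misses the threshold is not shown to be at its WT level, and over the 45 genes an unadjusted p under 0.05 was seen for 8 in nrpe1 and 7 in idn2.

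**Figure D4:**
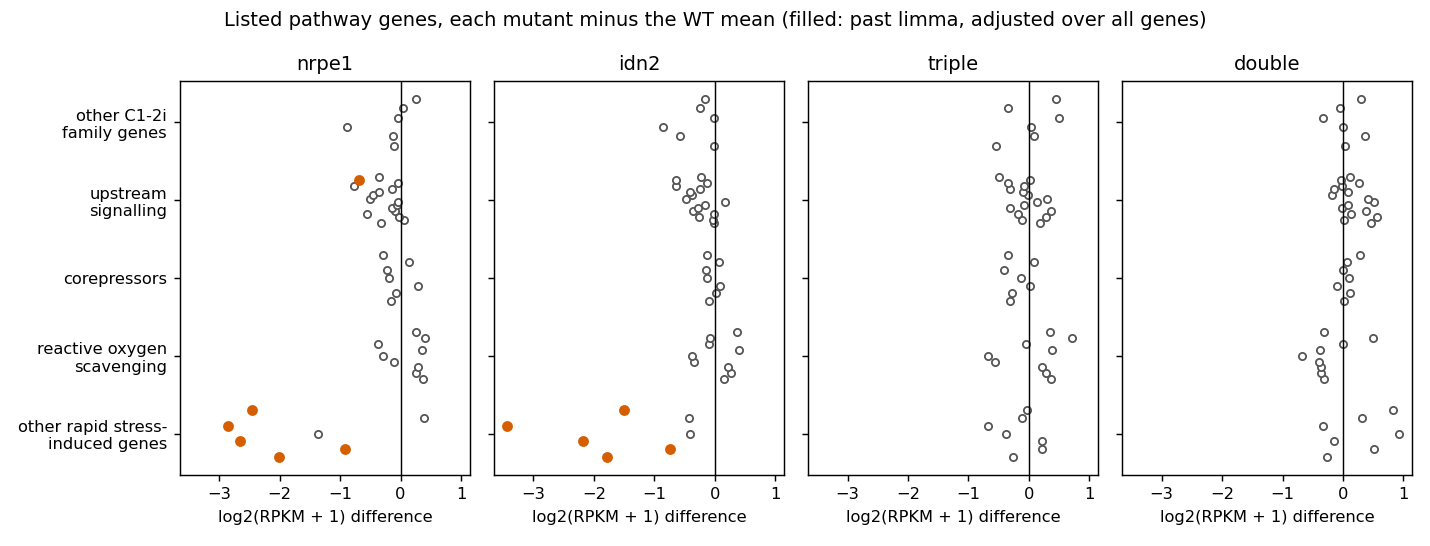
Difference in log2(RPKM + 1) from the WT mean for the tested genes of the 5 lists in each mutant, 1 point per gene, with those past limma marked. The genes of the rapid stress response reach down to -2.85 in nrpe1 and -3.44 in idn2, while the corepressor, scavenging and related C2H2 genes have no call.

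The nrpe1 library also differed in markers of other organs. PYK10, a beta-glucosidase of roots and seedlings, was at 44.7 and 40.0 RPKM in WT and 14.5 in nrpe1 (log2 difference -1.48, limma adjusted p = 1.32e-09), and 46.0 in idn2. The root hair genes RHD6 and EXPA7 had 0 reads in all 6 libraries. The summed level of 5 floral organ genes (AP1, AG, PI, AP3 and SEP3) was 13.3 RPKM in nrpe1, 4.40 and 6.46 in WT, 4.06 in idn2, 2.56 in the triple mutant and 2.52 in the double. None of the 5 passed limma, and none was at 0 reads. The part of these markers in the lower ZAT and AZF levels of nrpe1 was not tested.

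The 250 bases upstream of the annotated start are shown for the 4 genes that passed the 2-fold rule in nrpe1 and idn2 and for AZF3, which did not pass it, from RefSeq TAIR10.1, 5′ to 3′ on the gene's strand. Capitals mark TTGAC, the core of the W-box bound by WRKY factors, and CGCGT, the core of the element bound by CAMTA factors, on either strand.
ZAT10 (chr1:9649324-9649573, - strand): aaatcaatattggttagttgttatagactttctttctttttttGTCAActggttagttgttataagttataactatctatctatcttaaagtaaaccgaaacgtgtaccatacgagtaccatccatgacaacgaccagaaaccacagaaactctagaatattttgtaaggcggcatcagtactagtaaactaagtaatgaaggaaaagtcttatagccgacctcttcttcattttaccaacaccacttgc
ZAT12 (chr5:24102564-24102813, + strand): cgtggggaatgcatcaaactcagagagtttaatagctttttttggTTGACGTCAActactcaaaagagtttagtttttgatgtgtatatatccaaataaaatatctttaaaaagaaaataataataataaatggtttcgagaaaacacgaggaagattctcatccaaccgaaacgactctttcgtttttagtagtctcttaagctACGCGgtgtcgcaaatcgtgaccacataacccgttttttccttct
AZF1 (chr5:26920180-26920429, - strand): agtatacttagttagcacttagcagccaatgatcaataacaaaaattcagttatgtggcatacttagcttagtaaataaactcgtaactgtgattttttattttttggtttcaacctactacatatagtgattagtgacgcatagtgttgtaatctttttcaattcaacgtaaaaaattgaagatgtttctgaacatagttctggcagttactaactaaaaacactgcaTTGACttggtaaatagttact
AZF2 (chr3:6804297-6804546, - strand): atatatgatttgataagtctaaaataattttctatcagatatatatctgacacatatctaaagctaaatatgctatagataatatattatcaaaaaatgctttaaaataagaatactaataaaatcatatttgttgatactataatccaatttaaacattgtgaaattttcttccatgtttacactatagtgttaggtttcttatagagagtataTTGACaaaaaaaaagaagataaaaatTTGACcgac
AZF3 (chr5:17331647-17331896, - strand): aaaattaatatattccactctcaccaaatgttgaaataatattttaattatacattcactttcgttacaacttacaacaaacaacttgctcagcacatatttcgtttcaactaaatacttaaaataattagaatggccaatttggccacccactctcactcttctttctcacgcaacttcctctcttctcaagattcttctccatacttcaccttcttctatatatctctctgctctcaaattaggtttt
In windows from 250 bases before to 50 after the start, searched on both strands, TTGAC was present in 8 of the 9 genes, all but AZF3, and in 50.5% of the 27437 windows of the annotation. These 8 include ZAT5, ZAT6, ZAT7 and ZAT11, which like AZF3 did not pass the 2-fold rule, so TTGAC does not separate the genes that passed. CGCGT was present in ZAT7 and ZAT12 and in 8.70% of all windows, and 2 of its 3 matches in ZAT7 overlap each other. ZAT12 holds TTGAC on both strands in adjoining positions, from 205 to 196 bases before the start. AZF2 holds it at 35 and 9 bases before the start. ACGTG, the core of the abscisic acid element, was found in ZAT6, ZAT10, ZAT12 and AZF2 and in 26.7% of windows. CCGAC, the dehydration element core, was found in ZAT6, ZAT10 and AZF2 and in 15.1% of windows. GCCGCC, the GCC-box bound by ethylene response factors, was found in ZAT6 and ZAT10 and in 2.57% of windows. GAANNTTC, a heat shock element core, was found in ZAT6, ZAT7, ZAT11 and ZAT12 and in 11.6% of windows. A match describes the letters in the window and does not show a bound site.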

How the data were processed

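The deposited values are RPKM for 32947 genes per library on TAIR8 gene models, computed by the authors; the submitters' processing notes name Bowtie, but its version and the handling of multi-mapped reads are not given in the sources used here. In every library 100% of the values were whole multiples of the value of 1 read (tolerance 1e-06), with a lowest multiple of 1, read as 1 read added to each gene; it was taken off read numbers only. Deposited positions were taken as counting from 0, so 1 was added, and they can be off by 1. Sequences and motifs came from the RefSeq annotation of TAIR10.1 by locus identifier; AT2G28200 is called ZAT5, a symbol that this annotation does not give.

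The members and all lists were chosen with earlier results of these data known. A gene passed the size rule when its log2(RPKM + 1), a scale that understates changes of low genes, differed by at least 1 from each WT library. Pathway genes were tested with limma 3.58.1 in R 4.3.3 (1 mean per genotype, intensity trend, infinite prior degrees of freedom). A run on simulated data came first, with the same spread set for every gene and 20.13 prior degrees of freedom in its fit. It differs from the real fit in this, so it does not check the p-values given here. Named pathway genes were up to 6 per mutant past limma, ranked by distance from the closer WT value. Ratios, sequences and figures were made in Python 3.11.15 with scipy 1.17.1, pandas 2.3.3, numpy 2.4.6, Biopython 1.88 and matplotlib 3.10.9. Alternatives were another pseudocount, scaling, fold threshold or filter, the added read taken off, limma-voom and leaving out each WT library.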

Additional observations from a re-analysis of the deposited data

How the results depend on the processing

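With a 3-fold threshold the genes of the 9 that passed numbered 2 in nrpe1, 1 in idn2, 3 in nrpe1 against the triple and 2 in idn2 against it, in place of 4, 4, 5 and 5. With a 1.5-fold threshold AZF1 passed as lower and ZAT6 as higher in the double mutant, in place of 0 genes. ZAT5 was then lower in nrpe1 than in idn2, and ZAT6 higher in WT replicate 2 than in replicate 1, again in place of 0. Without WT replicate 1 the count was 6 in nrpe1 and 5 in idn2, and without WT replicate 2 it was 4 in each; the triple and double mutants stayed at 0 of the lower direction in both. Against WT replicate 1 alone ZAT6 was 2-fold higher in the triple and double mutants. Median-of-ratios scaling and quantile normalization each left 3 in idn2, without AZF1, and added ZAT7 in nrpe1, for 5. A pseudocount of 0.1 gave 5 in nrpe1 and 6 in idn2. Against the triple mutant, quantile normalization left 4 in idn2, without ZAT6. Of the log2 differences of the 9 genes under another pseudocount, scaling or the added read taken off, 128 moved by less than the SD between the WT libraries and 16 by more, the latter all of AZF1 or ZAT11. Leaving out a WT library moves each difference by a set share of the WT gap, so that limit does not apply: ZAT6 in nrpe1 ranged from -1.25 to -0.36 and in idn2 changed sign, from -0.68 to 0.21. With median-of-ratios scaling 1 pathway gene passed limma in the triple mutant (FSD1, adjusted p = 0.00118) and 1 in the double (ERF5, adjusted p = 0.0424), in place of 0; the cause was not tested.

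Counts over all genes moved more. By limma they were 728, 371, 67 and 77 in nrpe1, idn2, the triple and the double mutant, and 1477, 777, 329 and 302 with median-of-ratios scaling. With the added read taken off they were 633, 265 and 200 in the last 3, and with quantile normalization 117 in the double mutant. By the 2-fold rule 476, 333, 133 and 75 genes were lower, and 760, 589, 383 and 210 with a pseudocount of 0.1. Without WT replicate 1 they were 844, 652, 395 and 174, and without WT replicate 2 they were 214 in the triple mutant and 149 in the double. Genes 2-fold lower in WT replicate 2 than in replicate 1 numbered 70, and 1788 with a pseudocount of 0.1, 562 with median-of-ratios scaling and 151 with quantile normalization. Against the triple mutant a pseudocount of 0.1 gave 897 in nrpe1 and 608 in idn2, in place of 495 and 312. Leaving out a WT library leaves limma no residual degree of freedom, so it was not refitted. No paired analysis was possible because each mutant has 1 library. Depth limits ZAT11, AZF1 and ZAT7 most. The filter of 1 RPKM lets in some genes that hold only the added read. With that read taken off 20046 genes were tested, in place of 22362.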

Other observations

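The genes that flank the 9 on each side in the deposited coordinates number 18, of which 12 were tested. Among these, AT3G46086 held only the added read in every library, so its values show depth alone. None was 2-fold lower or higher than both WT libraries in any mutant. Their median log2 difference was -0.02 in nrpe1, -0.20 in idn2, -0.08 in the triple mutant and 0.06 in the double. BUB3.1 and SCO3, the neighbours of AZF2, had differences of 0.32 and -0.01 in nrpe1, where AZF2 itself stood at -1.60. Other neighbours were lower in nrpe1 beside their member. ACA2 stood at -0.72 beside ZAT5 at -0.86, CYP84A4 at -0.61 beside ZAT6 at -0.81, and NPY3 at -0.50 beside AZF1 at -1.14. In idn2 ACA2 and CYP84A4 were also lower, at -0.65 and -0.68, where ZAT5 stood at -0.05 and ZAT6 at -0.24. Whether neighbours and members change together was not tested.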
